A study of Homo sapiens with 6 samples.

Results

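The aminoacyl-tRNA synthetases described here are 35 genes, 19 for cytosolic enzymes and 16 for mitochondrial ones, out of 60325 gene rows in the deposited tables. They were taken by name, as the rows of a fixed list of synthetase symbols with a value in all 6 libraries, and a value in all 6 was listed for 17388 genes in the series. The cells were THP-1, an established line of human monocytic leukaemia cells widely used to stand in for monocytes. One group of cultures received recombinant human interleukin-6 (IL-6) and was collected at 6, 24 and 48 h, and the other group, labelled ctrl, was collected at the same times. Each of the 6 conditions had 1 library and none was repeated. All libraries come from 1 cell line, and neither the IL-6 dose nor the handling of the control cells is stated in the labels. The series design names the IL-6 response of these cells as its aim.

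Aminoacyl-tRNA synthetases join each amino acid to its transfer RNA, the step that makes amino acids available to the ribosome. Human cells keep 1 set of enzymes for the cytosol and, for most amino acids, a separate nuclear-encoded set for the mitochondria. GARS1 and KARS1, listed here with the cytosolic set, encode the enzymes of both compartments, and EPRS1 encodes a fused enzyme for glutamate and proline. When amino acids run short, uncharged transfer RNA activates the kinase GCN2, translation of the transcription factor ATF4 rises, and ATF4 with partners of the C/EBP family binds composite elements in promoters of genes for amino acid synthesis, transport and charging. Many cytosolic synthetase genes are known targets of this amino acid response, while WARS1 is also known for its strong induction by interferon-gamma. From such background the cytosolic enzymes were divided into an amino acid response group of 13 genes and 6 others. The division was made with earlier results of these data known, so counts by group describe these data and test nothing about the group.

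The promoter stretches that follow show where the letters TGATGNAA, a form of the amino acid response element, stand near the start of the synthetase genes. They are from RefSeq (GRCh38.p14), 30 bases each, written 5′ to 3′ on the strand of the gene, with the match in capitals. Capitals reading TTNCATCA are the same motif on the opposite strand.
CARS1: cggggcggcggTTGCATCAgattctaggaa
MARS1: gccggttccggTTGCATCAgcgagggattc
AARS1: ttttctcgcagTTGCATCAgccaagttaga
IARS1: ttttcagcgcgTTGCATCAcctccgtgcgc
TARS1: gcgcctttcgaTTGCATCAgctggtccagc
GARS1: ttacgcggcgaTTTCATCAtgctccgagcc
NARS1: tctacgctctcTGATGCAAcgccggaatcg
YARS2: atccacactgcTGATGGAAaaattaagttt
The stretches lie at chr11:3057407-3057436 (minus strand) for CARS1, chr12:57488053-57488082 (plus) for MARS1, chr16:70289675-70289704 (minus) for AARS1 and chr9:92293692-92293721 (minus) for IARS1. Those of TARS1 and GARS1 lie at chr5:33440956-33440985 (plus) and chr7:30594834-30594863 (plus). Those of NARS1 and YARS2 lie at chr18:57621804-57621833 (minus) and chr12:32756076-32756105 (minus). YARS2 is the mitochondrial gene among these 8, and the other 7 belong to the cytosolic amino acid response group.

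Windows of 300 bases, from 250 before to 50 after an annotated start, were found for 30 of the 35 genes, in 39 windows. AARS2, LARS1, VARS1, VARS2 and YARS1 were not matched. The motif TGATGNAA, searched on both strands, was present for 7 of the 10 response-group genes with a window (70.0%), 0 of the 6 other cytosolic genes and 1 of the 14 mitochondrial genes. It was present in 3.62% of all 35116 windows in the table, and for 4.46% of the 27305 genes that have one. With C fixed at the free position (TGATGCAA), it was present for 6 of the 10 response-group genes and for 1.08% of all genes with a window (0.866% of windows). The stricter motif is contained in the looser one, so these counts overlap. The group was drawn up from known targets of the response, often known by such elements, and with earlier results of these data known. These shares therefore describe the promoters and support no independent statement about them.

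**Figure D1:**
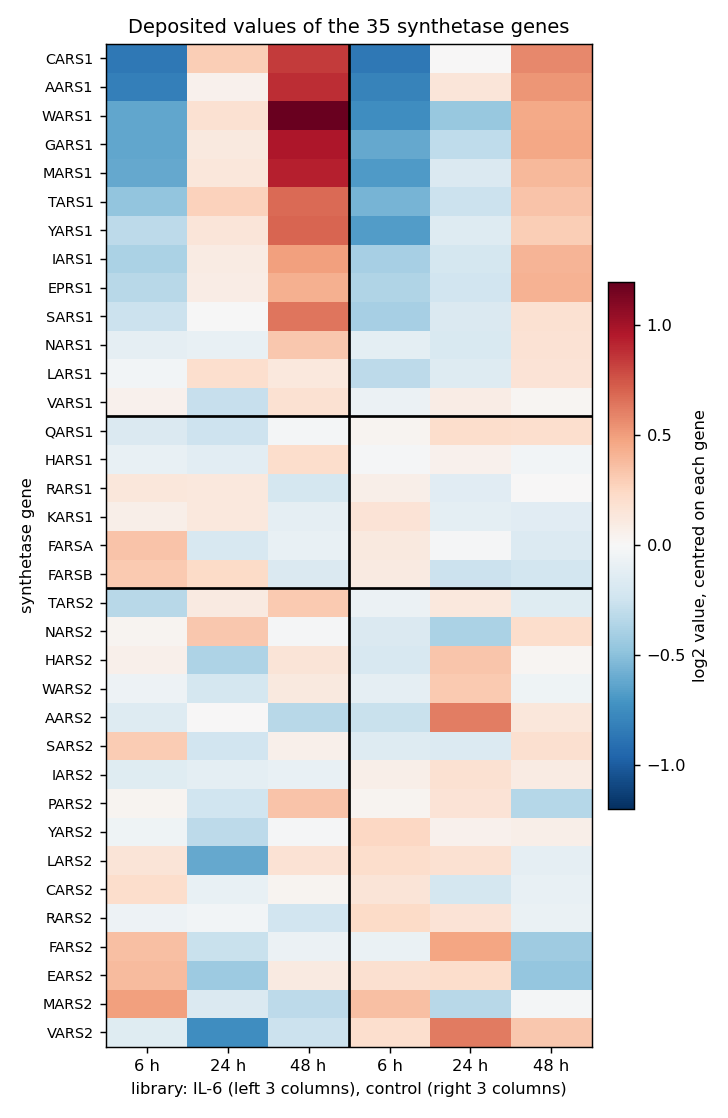
Deposited log2 values, centred on each gene, of the 35 synthetase genes (rows) in the 3 IL-6 libraries (left columns) and the 3 control libraries (right columns) at 6, 24 and 48 h, with red above and blue below the mean of the gene. Lines divide the 13 cytosolic genes of the amino acid response group (top), the 6 other cytosolic genes and the 16 mitochondrial genes (bottom); the top block is red at 48 h under both agents and blue at 6 h, except for VARS1 at 6 h with IL-6 (0.05).

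Between 6 and 48 h of culture, with IL-6 or without it, messenger RNA of 10 of the 19 cytosolic synthetases rose, while none of the 15 mitochondrial synthetases tested passed the threshold. All 10 belong to the amino acid response group of 13, which was drawn up with earlier results of these data known. The increases ran from 0.74 to 1.57 on the log2 scale, which is 1.67-fold to 2.96-fold. Over all 13572 genes tested, 2.37% passed upward and 1.29% downward at 48 h against 6 h, which is 321 and 175 genes. With equal library medians 250 passed upward and 254 downward. The total of 496 was 249 with no level filter, 67 without robust shrinkage, 178 without the IL-6 library of 6 h, 102 without the IL-6 library of 48 h and 1066 without the control library of 48 h. The comparison used limma, with 2 libraries at each time point, agent as the second term and a threshold of 0.05 on the Benjamini-Hochberg adjusted p. The labels do not state separate cultures for the libraries, and the p-values rest on how far these libraries vary, which may be technical.

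Values below are the deposited log2 values, which the authors centred on each gene, so a difference of 1 is a 2-fold difference and no value says how abundant a gene is. CARS1, which charges cysteine transfer RNA, stood at -0.86, 0.29 and 0.84 in the IL-6 libraries of 6, 24 and 48 h, against -0.86, 0.00 and 0.58 in the control libraries. Both libraries of 48 h lay above both of 24 h, which lay above both of 6 h. CARS1 rose by 1.57 ± 0.15 at 48 h against 6 h (limma estimate ± SE, adjusted p = 0.00145).

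AARS1, the alanine enzyme, stood at -0.82, 0.05 and 0.89 in the IL-6 libraries, against -0.80, 0.14 and 0.53 in the control libraries. It rose by 1.52 ± 0.15 (limma adjusted p = 0.00145), again with each later time above the earlier one under both agents. WARS1, the tryptophan enzyme, stood at -0.62, 0.18 and 1.19 in the IL-6 libraries, against -0.75, -0.45 and 0.45 in the control libraries. It rose 2.84-fold, with an SE of 0.16 on the log2 scale (limma adjusted p = 0.00267), and its IL-6 library of 48 h held the highest value of any synthetase in any library.

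GARS1, the glycine enzyme, stood at -0.62, 0.12 and 0.97 in the IL-6 libraries, against -0.61, -0.30 and 0.46 in the control libraries. It rose by 1.33 ± 0.15 (limma adjusted p = 0.003). MARS1, which charges both initiator and elongator methionine transfer RNA in the cytosol, stood at -0.61, 0.13 and 0.93 in the IL-6 libraries, against -0.68, -0.17 and 0.39 in the control libraries. The 6 h values of GARS1 and MARS1 were nearly the same under both agents, and their 48 h values were higher with IL-6, by 0.51 and 0.54. MARS1 rose by 1.31 ± 0.15 (limma adjusted p = 0.00287).

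YARS1, the tyrosine enzyme, stood at -0.32, 0.15 and 0.70 in the IL-6 libraries, against -0.67, -0.16 and 0.29 in the control libraries, and rose by 0.99 ± 0.13 (limma adjusted p = 0.00485). TARS1, the threonine enzyme, stood at -0.47, 0.27 and 0.68 in the IL-6 libraries, against -0.56, -0.26 and 0.34 in the control libraries, and rose by 1.02 ± 0.14 (limma adjusted p = 0.00756). For YARS1 and TARS1 the IL-6 library was above its control at all 3 times. IARS1, the isoleucine enzyme, stood at -0.38, 0.10 and 0.49 in the IL-6 libraries, against -0.40, -0.21 and 0.41 in the control libraries, and rose by 0.84 ± 0.13 (limma adjusted p = 0.013). EPRS1, the glutamate and proline enzyme, rose by 0.77 ± 0.14 (limma adjusted p = 0.0196). SARS1, which charges serine and selenocysteine transfer RNA, rose by 0.74 ± 0.14 (limma adjusted p = 0.021).

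The 3 response-group genes that did not pass were LARS1, the leucine enzyme (0.31 ± 0.14), NARS1, the asparagine enzyme (0.36 ± 0.13), and VARS1, the valine enzyme (0.11 ± 0.15), with limma adjusted p-values between 0.14 and 0.733. All 13 genes had a positive estimate, and their median was 0.99, beside 0.07 over all genes tested. Of the 6 other cytosolic genes, FARSA and FARSB (the subunits of the phenylalanine enzyme), KARS1 (lysine) and RARS1 (arginine) had estimates between -0.41 and -0.21. QARS1 (glutamine) and HARS1 (histidine) had 0.16 and 0.14. The median of these 6 was -0.22, and 0 of 6 passed in either direction. Both 48 h libraries lay above both 6 h libraries for 12 of the 13 response-group genes, 0 of the 6 others and 1 of the 15 mitochondrial genes, WARS2. Both lay below for 0 of the 13 response-group genes, 4 of the 6 others and 4 of the 15 mitochondrial genes. Over all genes tested, 31.5% had both 48 h libraries above and 21.5% had both below.

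**Figure D2:**
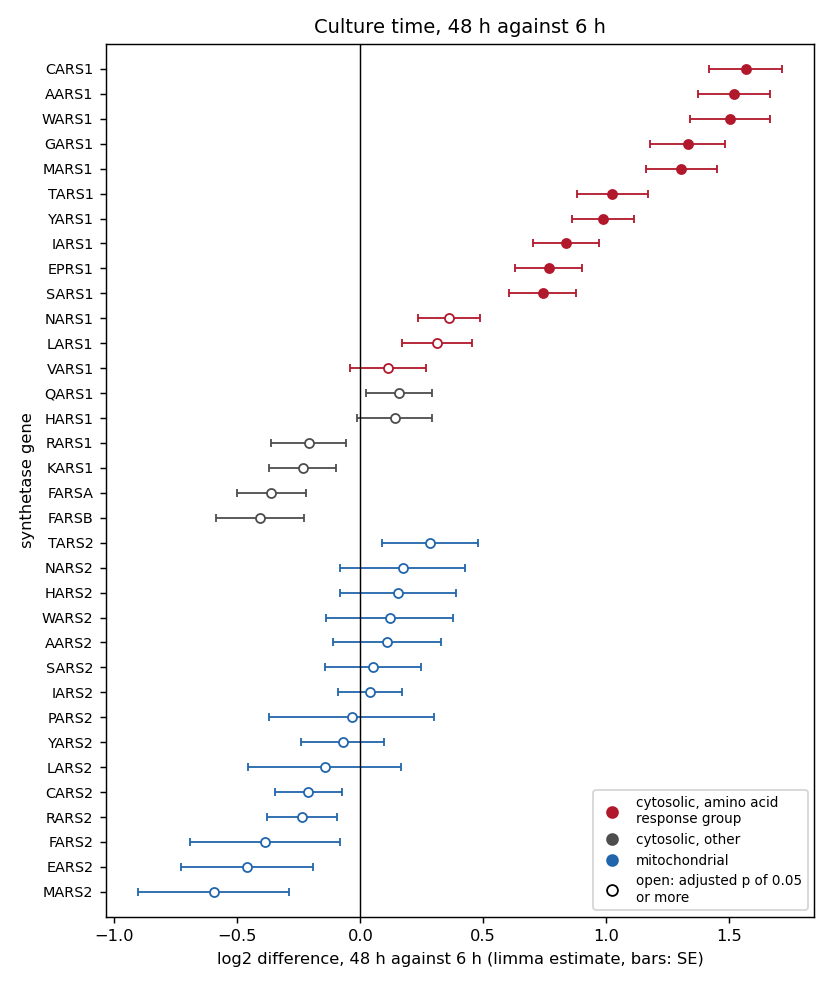
Log2 difference between 48 h and 6 h for the 34 synthetase genes tested, as the limma estimate with its SE, in red for the cytosolic amino acid response group, grey for the other cytosolic genes and blue for mitochondrial genes. Filled points passed the adjusted p of 0.05: they are the 10 genes from CARS1 at 1.57 to SARS1 at 0.74, and no mitochondrial point is filled.

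The 10 increases depended on how the variance was modelled and less on which libraries were used. With no trend of the variance on level, limma called 0 genes in the whole table and so 0 of the 10, at adjusted p-values between 0.211 and 0.24. Without robust shrinkage 6 of the 34 genes passed, and 6 also passed when the IL-6 library of 6 h was left out. Leaving out that library ended the calls of EPRS1, IARS1, SARS1 and TARS1 (limma adjusted p between 0.0838 and 0.246). Leaving out the control library of 6 h ended those of EPRS1 (0.0633) and SARS1 (0.0654), and leaving out the IL-6 library of 48 h ended that of SARS1 (0.126). AARS1, CARS1, GARS1, MARS1, WARS1 and YARS1 were the 6 that passed in each of the 6 fits that left out 1 library.

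The gains were already present in part at 24 h. Against 6 h, CARS1 rose 2.01-fold, with an SE of 0.15 on the log2 scale (limma adjusted p = 0.0119), and AARS1 by 0.91 ± 0.15 (limma adjusted p = 0.017), and no other synthetase passed. Over all genes tested, 1.39% passed upward and 0.258% downward at 24 h against 6 h, and the median of all genes was 0.11 higher at 24 h. Of the response group, 11 of 13 had a positive estimate, with a median of 0.49, whereas the 6 other cytosolic genes had a median of -0.11. Neither CARS1 nor AARS1 passed when the control library of 24 h (limma adjusted p of 0.0955 and 0.2), the IL-6 library of 6 h (0.087 and 0.109) or the IL-6 library of 24 h (0.106 and 0.0822) was left out. Neither passed without robust shrinkage (0.0543 and 0.0754). From 24 to 48 h, WARS1 rose by 0.96 ± 0.16 (limma adjusted p = 0.0414), where 0.0958% of all genes passed upward and 0.413% downward. This call was lost with equal library medians (0.0555), with no level filter (0.093), and without the control library of 24 h (0.27), the IL-6 library of 24 h (0.298) or the IL-6 library of 48 h (0.184). The response-group median was 0.50 for 48 h against 24 h, with all 13 estimates positive.

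Both culture series showed the rise of the response group on their own. In the IL-6 libraries alone the group median was 1.02 higher at 48 h than at 6 h, and 10 of 13 genes were at least 1.5-fold higher, against 18.7% of all genes tested. In the control libraries alone it was 0.90 higher, and 10 of 13 genes were at least 1.5-fold higher, against 15.9% of all genes tested. Each of these is a difference of 2 libraries with no test. The group median ran -0.38, 0.12 and 0.68 over 6, 24 and 48 h with IL-6, and -0.56, -0.17 and 0.39 in controls. The mitochondrial median ran 0.04, -0.21 and 0.03 with IL-6, and 0.04, 0.17 and -0.05 in controls. At 24 h the mitochondrial medians of the 2 agents thus stood apart in the direction opposite to that of the response group.

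**Figure D3:**
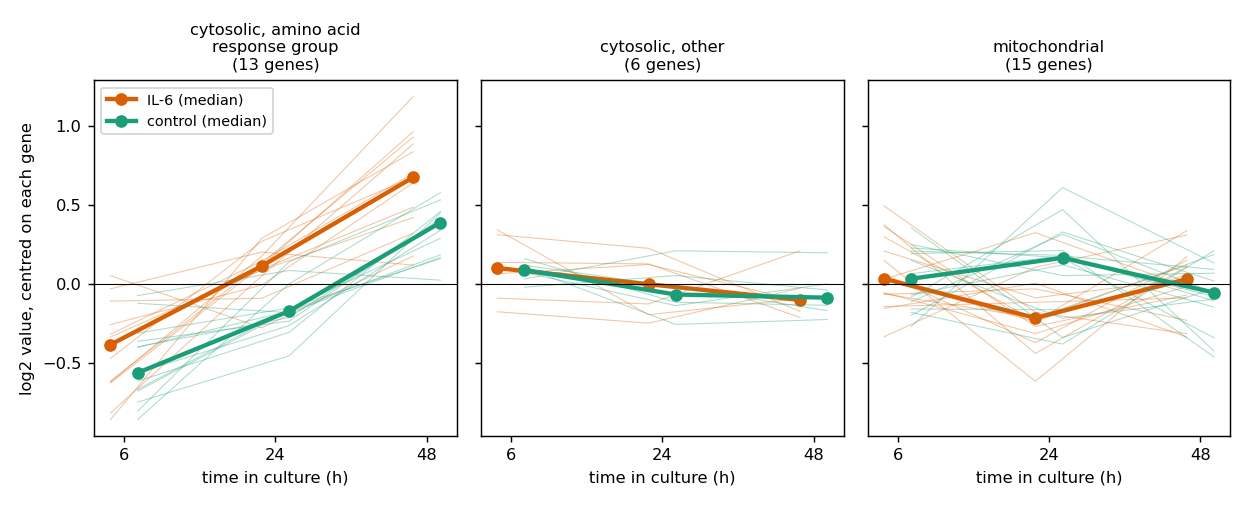
Deposited log2 values, centred on each gene, at 6, 24 and 48 h (equally spaced on the axis) in IL-6 libraries (orange) and control libraries (green), with 1 thin line for each gene and a thick line for the median of the group. The median of the 13 response-group genes climbs to 0.68 with IL-6 and 0.39 in controls at 48 h, while the medians of the 6 other cytosolic and the 15 mitochondrial genes tested stay between -0.21 and 0.17.

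The mitochondrial enzymes serve translation of the few proteins encoded in mitochondrial DNA. Of the 15 tested, 7 had a positive and 8 a negative estimate at 48 h against 6 h, with a median of -0.04 and a range from -0.60 for MARS2 (methionine) to 0.28 for TARS2 (threonine). Their standard errors, 0.13 to 0.34, were wider than those of the cytosolic genes, 0.13 to 0.18, so a change as small as that of SARS1 could have gone uncalled for many of them. VARS2, the valine enzyme, fell under the level filter and was not tested. Its values were -0.15, -0.75 and -0.26 in the IL-6 libraries, against 0.20, 0.63 and 0.33 in the control libraries, so it was lower with IL-6 at each time. Genes named for proteins of the mitochondrial ribosome, which works with these enzymes, had a median of -0.29, and 6 of 78 passed downward and 0 upward. The fallers were MRPL11, MRPL21, MRPL41, MRPL52, MRPL55 and MRPS36. These genes were taken by their MRPL or MRPS symbols alone, so not each of them need encode a part of the ribosome.

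Enzymes for the same amino acid differed between the compartments. In 16 pairs of a cytosolic and a mitochondrial gene, the cytosolic estimate at 48 h against 6 h was the higher one in 14 and the lower one in 2, with a median difference of 0.77. In 11 pairs it was higher in the IL-6 and in the control series alike. EPRS1 was paired with both EARS2 and PARS2, and FARS2 with both FARSA and FARSB, so the pairs are not all separate genes. The widest gaps were between MARS1 (1.31) and MARS2 (-0.60), and between CARS1 (1.57) and CARS2 (-0.21). The enzymes for phenylalanine, histidine and arginine differed between compartments by less than 0.03 in each pair. For histidine and arginine this averages opposite differences, 0.21 (HARS1 minus HARS2) and -0.19 (RARS1 minus RARS2) in the IL-6 series, against -0.24 and 0.24 in the control series. The choice of these amino acids after their values were seen allows no test. The median of all cytosolic genes was 0.74 and that of all mitochondrial genes -0.04, a difference of 0.78.

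**Figure D4:**
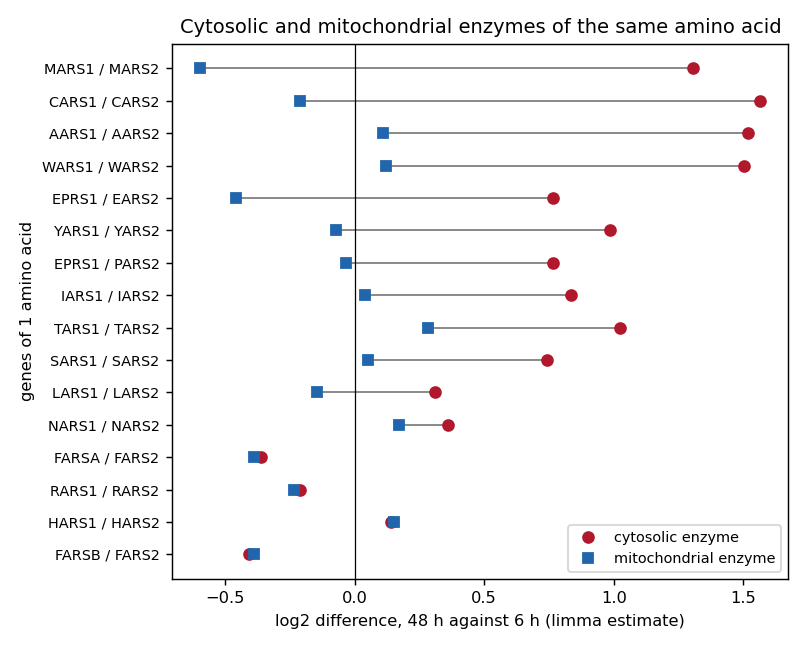
Limma estimates of the log2 difference between 48 h and 6 h for the cytosolic (red circles) and the mitochondrial (blue squares) enzyme of the same amino acid, in 16 pairs joined by grey lines. Red lies right of blue in 14 pairs, by up to 1.90 for MARS1 and MARS2, and the points nearly coincide in the pairs of phenylalanine, histidine and arginine.

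The libraries carried no mark of strand, so reads of genes that overlap cannot be told apart. Of the 10 genes that rose, 5 have an overlapping gene with values in all 6 libraries. MARS1 overlaps DDIT3, itself a gene of the stress response (0.19 ± 0.15 at 48 h against 6 h, limma adjusted p = 0.516), and ARHGAP9, which rose by 0.58 ± 0.13 (limma adjusted p = 0.0431). AARS1 overlaps DDX19B (0.12 ± 0.15), GARS1 overlaps its divergent transcript GARS1-DT (0.27 ± 0.18), WARS1 overlaps WDR25 (0.40 ± 0.43) and YARS1 overlaps S100PBP (0.74 ± 0.34), and none of these passed. Without the overlapped genes, 5 of 8 response-group genes rose (CARS1, EPRS1, IARS1, SARS1 and TARS1), with a median of 0.75. Of these, EPRS1, IARS1, SARS1 and TARS1 did not pass without robust shrinkage (limma adjusted p between 0.052 and 0.0737), and CARS1 did (0.0202). Their calls are also the ones that ended when single libraries were left out. CARS1 was thus the only gene with no such overlap whose call held in those fits. The cytosolic median was then 0.34 over 12 genes and the mitochondrial one 0.00 over 10, a difference of 0.33. Of 15 annotated pseudogenes of synthetases and their partners, 8 had no value in any library and 1, PRORSD1P, had values in all 6.

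Several cytosolic synthetases assemble with scaffold proteins into the multisynthetase complex. Of its 7 enzymes among the 35 genes, EPRS1, IARS1 and MARS1 rose at 48 h against 6 h, and KARS1, LARS1, QARS1 and RARS1 did not pass. Of the 12 cytosolic genes outside the complex, 7 rose. The 3 scaffold genes AIMP1, AIMP2 and EEF1E1 had estimates between -0.38 and -0.23 and 0 passed.

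Few genes for other steps in the supply and use of charged transfer RNA passed at 48 h against 6 h. Of 12 genes for transfer RNA supply and quality control, 1 rose: XPOT, the nuclear export receptor of transfer RNA, by 0.79 ± 0.16 (limma adjusted p = 0.0271). Of 5 cytosolic elongation factor genes, EEF2, which drives translocation on the ribosome, rose by 0.62 ± 0.14 (limma adjusted p = 0.0439). None of 4 mitochondrial elongation factor genes and none of 4 genes of the mitochondrial amidotransferase and formyltransferase passed. MYC, a transcription factor gene tied to growth and translation, had an estimate of 0.15 ± 0.16.

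Genes of the amino acid response outside the synthetases rose in the same comparison. Of 26 such genes, 18 rose and 0 fell at 48 h against 6 h, and their median was 1.15. Without robust shrinkage 10 of the 26 passed, without the IL-6 library of 48 h 12 and without a variance trend 0. The 6 with the lowest adjusted p were PHGDH and PSAT1 of serine synthesis (2.45 ± 0.16 and 2.11 ± 0.18), SLC7A5, a carrier of large neutral amino acids (1.53 ± 0.12), CHAC1, a glutathione-degrading enzyme (3.12 ± 0.24), ATF4 itself (1.28 ± 0.13) and SHMT2, of mitochondrial serine and glycine exchange (1.11 ± 0.14), with limma adjusted p-values between 0.000215 and 0.0043. Of 12 amino acid transporter genes, 7 rose, among them SLC38A2, a carrier of small neutral amino acids (1.17 ± 0.15, limma adjusted p = 0.00485). SLC7A5, SLC3A2, SLC1A5, SLC7A1 and SLC7A11 are on both lists. Of the interferon-gamma response genes set beside WARS1, 6 of 9 were tested and 1, the guanylate-binding protein gene GBP2, rose (1.69 ± 0.40, limma adjusted p = 0.0489).

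Over the 3 time-matched pairs, IL-6 against control, none of the 34 synthetases passed, where 0.228% of all genes passed upward and 0.00737% downward. At an unadjusted p under 0.05, limma had 6 of the 34 synthetases higher and 1 lower, beside 493 higher and 700 lower among all 13572 genes tested. The 6 were WARS1, YARS1, TARS1, MARS1, GARS1 and SARS1, all of the response group, and the 1 was QARS1. Estimates were positive for 16 of the 19 cytosolic genes, with a median of 0.13, and for 8 of the 15 mitochondrial genes, with a median of 0.00, beside a median of -0.03 over all genes. The difference of the cytosolic and mitochondrial medians, 0.13, was 0.34 without the 6 h pair, 0.03 without the 24 h pair and 0.38 without the 48 h pair.

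WARS1 had the highest IL-6 estimate of the synthetases, 0.50 ± 0.13 (limma adjusted p = 0.278), from IL-6 minus control differences of 0.13, 0.63 and 0.74 at 6, 24 and 48 h. YARS1 had 0.35 ± 0.10 (limma adjusted p = 0.332), with differences of 0.35, 0.31 and 0.41. TARS1 had 0.32 ± 0.12, GARS1 0.31 ± 0.12 and MARS1 0.30 ± 0.12, with limma adjusted p-values between 0.451 and 0.52. The IL-6 library was the higher one in all 3 pairs for WARS1, YARS1, TARS1 and MARS1, and in 2 of 3 for GARS1.

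The lowest IL-6 estimates were those of AARS2 (-0.32 ± 0.18), QARS1 (-0.30 ± 0.11), YARS2 (-0.25 ± 0.14), IARS2 (-0.23 ± 0.11) and RARS2 (-0.21 ± 0.12), with limma adjusted p-values between 0.462 and 0.668. AARS2, the mitochondrial alanine enzyme, stood at -0.15, 0.01 and -0.33 in the IL-6 libraries, against -0.27, 0.61 and 0.13 in the control libraries. QARS1, the glutamine enzyme, stood at -0.17, -0.25 and -0.02 in the IL-6 libraries, against 0.03, 0.21 and 0.20 in the control libraries. QARS1 was thus lower with IL-6 in all 3 pairs, whereas AARS2 was lower at 24 and 48 h.

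YARS2, the mitochondrial tyrosine enzyme, stood at -0.05, -0.31 and -0.01 in the IL-6 libraries, against 0.25, 0.06 and 0.07 in the control libraries. IARS2, the mitochondrial isoleucine enzyme, stood at -0.14, -0.11 and -0.09 in the IL-6 libraries, against 0.07, 0.18 and 0.09 in the control libraries. RARS2, the mitochondrial arginine enzyme, stood at -0.06, -0.03 and -0.23 in the IL-6 libraries, against 0.23, 0.17 and -0.08 in the control libraries. YARS2, IARS2 and RARS2 were each lower with IL-6 within each pair. Over the synthetases tested, IL-6 was higher in all 3 pairs for 9 cytosolic and 1 mitochondrial gene, against 12.6% of all genes. It was lower in all 3 for 1 cytosolic and 3 mitochondrial genes, against 18.2% of all genes.

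At single times IL-6 and control are 1 library each, and no test is possible. At 6 h 0 synthetases were 1.5-fold apart, where 8.66% of all genes were that much higher and 8.71% that much lower. At 24 h WARS1 and the mitochondrial asparagine gene NARS2 were at least 1.5-fold higher with IL-6 (8.05% of all genes). Of the 34 synthetases tested, 5 were at least 1.5-fold lower at 24 h, a share near that of all genes (13.0%). All 5 were among the 15 mitochondrial genes. They were LARS2 (leucine, -0.80), FARS2 (phenylalanine, -0.74), HARS2 (histidine, -0.70), EARS2 (glutamate, -0.65) and AARS2 (alanine, -0.61). At 48 h WARS1 and PARS2, the mitochondrial proline gene, were at least 1.5-fold higher (8.79% of all genes) and 0 were lower (9.36%). Of the 5 genes low at 24 h, LARS2, FARS2, HARS2 and EARS2 were higher with IL-6 at 48 h, by 0.13 to 0.57. The mitochondrial median of IL-6 minus control was 0.06, -0.37 and 0.13 at 6, 24 and 48 h, and that of the cytosolic response group was 0.06, 0.31 and 0.33. Over all genes tested the median was 0.02, -0.07 and -0.04.

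**Figure D5:**
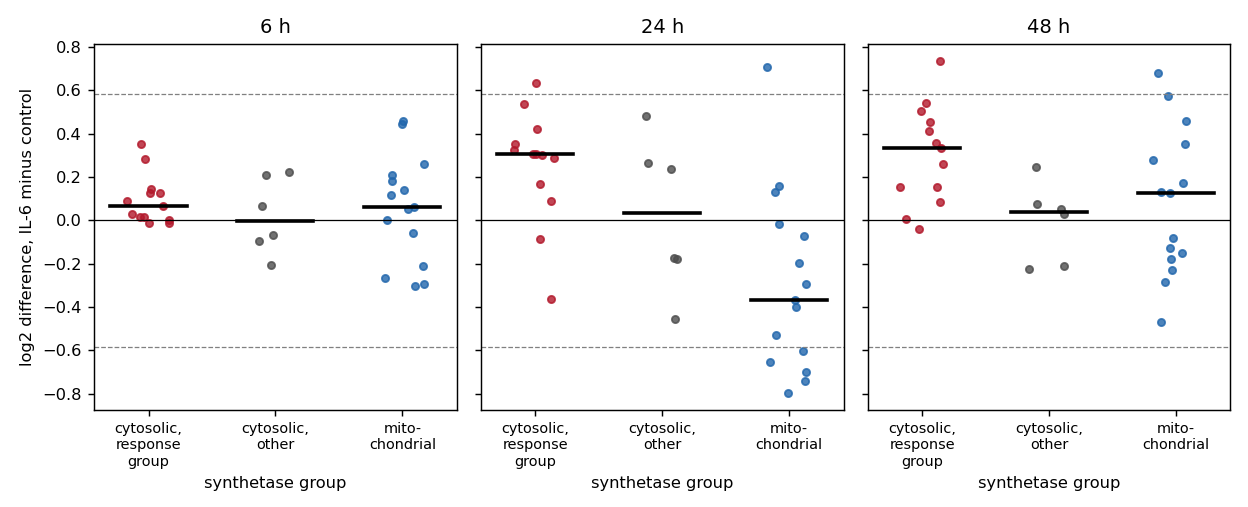
Log2 difference between the IL-6 and the control library at 6, 24 and 48 h for the 34 synthetase genes tested, by group, with 1 point for each gene, black bars for medians and dashed lines at 1.5-fold in either direction. Points are spread sideways at random; the mitochondrial median lies at -0.37 at 24 h and at 0.06 and 0.13 at the other times.

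To see if the response to IL-6 was another at 48 h than earlier, the IL-6 minus control difference at 48 h was set against the mean of those at 6 and 24 h, leaving 1 residual degree of freedom. Over all genes 0.162% passed in either direction, and 0 of the 34 synthetases did, the lowest limma adjusted p being 0.636, with 0 at an unadjusted p under 0.05. Among the other amino acid response genes, CHAC1 rose with IL-6 over the 3 pairs, by 1.31 ± 0.20 (limma adjusted p = 0.0399), and the other 25 of 26 did not pass. All 26 estimates were positive, with a median of 0.39. The call of CHAC1 was lost without a variance trend, without robust shrinkage, with equal library medians, with no level filter, with no time term, and without the 24 h or the 48 h pair, and without the 6 h pair 6 of the 26 passed.

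The letters TTCNNNGAA, a form of the STAT binding motif called GAS that reads alike on both strands, are shown for the response-group genes that hold them, since IL-6 signals through STAT3. Each stretch has 29 bases of RefSeq (GRCh38.p14) with the match in capitals, and TARS1 holds 1 in each of 2 windows.
WARS1: gctcaagtgtTTCTGAGAAtctgggtgat
TARS1: gcgacctgatTTCCTAGAAgggctctgtc
TARS1: cgccgaaaacTTCCCGGAAgtttagacca
CARS1: ttgcatcagaTTCTAGGAAgtgtctgtag
These lie at chr14:100375471-100375499 (minus strand) for WARS1, chr5:33440828-33440856 and chr5:33440631-33440659 (plus) for TARS1, and chr11:3057397-3057425 (minus) for CARS1. The motif was present for 3 of 10 response-group genes with a window, 0 of 6 other cytosolic genes and 2 of 14 mitochondrial genes, PARS2 and WARS2, and for 9.38% of all genes with a window. In CARS1 it stands beside the amino acid response element shown before. A match of letters describes the sequence and is not a measured binding site.

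The smallest unit of the deposited values could be recovered for 15373 genes, which gives levels in an arbitrary unit with steps of 0.001 up to a limit of 100. Levels were recovered for 5 cytosolic and all 16 mitochondrial synthetases. The other 14 cytosolic genes, which include every gene that rose except CARS1, had none recovered and were treated as high. Whether the authors divided by gene length is not stated, so levels are set side by side only within a gene. CARS1, the gene that rose with a level, had 23.7, 52.5 and 76.8 in the IL-6 libraries of 6, 24 and 48 h, against 23.7, 43.0 and 64.2 in the control libraries. IARS2 stayed between 72.2 and 75.0 in the IL-6 libraries, against 83.5 to 90.2 in the control libraries. LARS2, which was low at 24 h with IL-6, had 7.25, 4.27 and 7.38 in the IL-6 libraries, against 7.56, 7.42 and 6.08 in the control libraries. VARS2 lay between 0.538 and 0.816 in the IL-6 libraries, against 1.04 to 1.40 in the control libraries.

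In the deposited tables CARS1 (ENSG00000110619.18) spans chr11:3000922-3057613, AARS1 (ENSG00000090861.17) chr16:70251983-70289707 and WARS1 (ENSG00000140105.18) chr14:100333790-100376805, all on the minus strand of GRCh38. GARS1 (ENSG00000106105.15) spans chr7:30580533-30634033 and MARS1 (ENSG00000166986.15) chr12:57475445-57517569, both on the plus strand. All 35 genes are annotated as protein-coding.

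Between 22209 and 22733 genes had a value in an IL-6 library, and between 22000 and 23108 in a control library, with depth in reads unknown. All 10 monocyte markers looked up had values in all 6 libraries, and 1 of them, LYZ, the lysozyme gene, fell by 1.78 at 48 h against 6 h (limma adjusted p = 0.000601). Another of the 10, FCGR1A, was higher with IL-6 over the 3 time-matched pairs, by 0.65 (limma adjusted p = 0.0402). Of 14 markers of other cell types, 6 had no value in any library and 3 were tested. NKG7, a cytotoxic lymphocyte marker, was the 1 of these 3 that rose at 48 h against 6 h, by 1.01 (limma adjusted p = 0.0201), while CD3E, CD2 and MS4A1 had no value. The part of these markers in the synthetase results was not tested. In bulk RNA, a change in the share of cells and a change in RNA per cell cannot be told apart.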

How the data were processed

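Total RNA of THP-1 cells was amplified with a SMART-Seq v4 low-input kit and made into 6 libraries with Nextera XT, per the labels' protocols, which marks no strand. The authors deposited log2 values, centred on each gene (means of 0 within 1.8e-07), under a processed-signal heading per the file headers. Build GRCh38 (hg38) is from the submitters' processing notes; how reads were aligned, counted and normalized is not given in the sources used here. Counts are not held, so depth and counting error are unknown. A level was recovered from whole-number ratios between libraries for 88.4% of genes with 6 values; 19 of 2000 decoys matched by accident, none at a mean level under 35.6. In R 4.3.3, limma 3.58.1 was fitted with time and agent to 13572 genes, those listed in every library whose level averaged 1 or more or was not recovered, with robust shrinkage, a variance trend on level (genes without one as high), 2 residual degrees of freedom and a median prior of 7.76. The fit was also run on simulated data drawn with its own variance estimates, so that run does not check the variance trend. Adjustment ran over all genes tested. Members, lists and rules were chosen with earlier results of these data known. Full values are given for synthetases past the threshold (at most 8 in a comparison) and for the 5 highest and 5 lowest IL-6 estimates; of other lists, at most 6 genes that passed. A gene of the transfer RNA supply list is not reported here.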

Additional observations from a re-analysis of the deposited data

How the results depend on the processing

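Estimates of the synthetases that passed, in the comparison where they passed, and of the 5 highest and 5 lowest IL-6 estimates kept their direction in every alternative run; those of the other synthetases were not traced. At 48 h against 6 h, 10 synthetases passed; 0 passed without a variance trend, 6 without robust shrinkage and 6 to 10 with 1 library left out. At 24 h against 6 h, 2 passed; 0 passed without a variance trend or without robust shrinkage, and 0 to 4 with 1 library left out. At 48 h against 24 h, 1 passed; 0 passed without a variance trend, without robust shrinkage, with equal library medians or with no level filter, 2 with a mean level of at least 5 or with log2(level + 1), and 0 to 5 with 1 library left out. With IL-6, 0 passed in every alternative run. The fits with 1 library left out have 1 residual degree of freedom and were chosen after seeing the data. The difference of the cytosolic and mitochondrial medians at 48 h against 6 h, 0.78, was 0.74 with a mean level of at least 5, 0.33 without genes that others overlap, and 0.77 to 0.80 in 1 culture series at a time. At 2-fold in place of 1.5-fold, 0 synthetases were apart with IL-6 at 24 h (7 at 1.5-fold) and 0 at 48 h (2 at 1.5-fold). The causes were not tested. Depth is unknown, each condition has 1 library, and the levels that set the variance trend were not recovered for 14 of the 19 cytosolic genes.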
